A study of Homo sapiens with 18 samples.

Results

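The 2 BT-549 control groups of this RNA-seq series were compared with each other, without any silencing, to ask how far the basal interferon (IFN) and stress state of one cell line differed between 2 experiments. BT-549 is a triple-negative breast cancer (TNBC) line, that is, one with little estrogen receptor, progesterone receptor or HER2. The labels give both groups the same description, BT549 cells with puromycin resistance and a stable control shRNA (short hairpin RNA), 3 libraries in each. One group was the control for shPBRM1, and the other the control for shIRF1. They were chosen by the experiment they belong to, not by any measured value, and make up 6 of the 18 libraries of the series. The column headings of the shPBRM1 table name its controls by the line, with no hairpin, and those of the shIRF1 table name a control shRNA. Headings of the shPBRM1 table also carry a run of digits before the line, which those of the shIRF1 table lack. The headings do not say what these digits mean. The study's methods describe a scrambled control shRNA delivered by a virus, with puromycin selection, and do not say whether lines were single clones. The BT-549 lines with a stable shPBRM1 or shIRF1, 3 libraries each, are given beside the controls. Vehicle-treated MDA-MB-436 cells carrying a tet-MUC1shRNA (the DOX- group, 3 libraries) serve as a yardstick of a second TNBC line. BT-549 medium held serum and insulin. Total RNA came from triplicate cultures, so the errors cover the spread between cultures of one line and not between independent lines. The 2 tables were made separately. Experiment, library preparation and cell stock therefore cannot be told apart from the groups, and all differences are given as a description, without p-values.

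Cells respond to type I IFN through the receptor IFNAR1/IFNAR2 and the kinases JAK1 and TYK2, and a factor that contains STAT2 and IRF9 then binds the IFN-stimulated response element (ISRE) of IFN-stimulated genes. IFN-gamma acts through IFNGR1/IFNGR2, JAK1 and JAK2 and raises IRF1, a transcription factor of the antigen presentation and IDO1 genes. Cancer cells can keep part of this program on without added IFN, a chronic state that has been tied to resistance to DNA damage. Stress is read by other factors: ATF4 when translation is curbed, XBP1 and ATF6 when proteins misfold in the endoplasmic reticulum, NF-kB in inflammation, and SREBP when sterols are short.

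Values are TPM (transcripts per 1000000 transcripts), rescaled to 1000000 over genes listed in both tables after short noncoding RNAs were left out. Differences are means of log2(TPM + 1) in the control for shPBRM1 minus those in the control for shIRF1, with a standard error (SE) from the 3 and 3 libraries. Adding 1 understates the difference of genes near or below 1 TPM. A gene was called higher or lower when the difference was at least 1 on this log2 scale and the 3 and 3 libraries did not overlap. Of 12909 genes tested, 1274 (9.87%) were called higher and 404 (3.13%) lower in the control for shPBRM1. These shares are the background for every count of called genes in the gene lists. Of all called genes 75.9% were higher, a split that moved with the scaling: it was 59.7% after trimmed-mean scaling, 60.1% after median-ratio scaling, 56.6% after quantile scaling, 71.2% without histone and mitochondrial genes, 86.5% after scaling to 10 reference genes and 98.4% in TPM as deposited. Under every scaling that left short noncoding RNAs out, 862 genes were called higher and 264 lower. The groups did not overlap for 81.5% of genes, so the size of a difference carries more weight here than the absence of overlap. The median over all genes was 0.15 and 60.3% of genes had a positive difference, and counts are read against that shift. Across genes, log2 levels correlated at 0.996 to 0.998 between libraries of one control group and at 0.941 to 0.944 between libraries of different groups.

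Both groups carried the features of the line. VIM and CDH2, mesenchymal filament and adhesion genes, were high in both (1559.5 against 2347 TPM and 164 against 116 TPM, means of the control for shPBRM1 and the control for shIRF1). The hormone receptor genes ESR1 and PGR were near 0 (ESR1 at 0, 0 and 0 against 0.0057, 0.0028 and 0 TPM and PGR at 0.0671, 0.0166 and 0.0569 against 0.0528, 0.0318 and 0.0271 TPM), and ERBB2 was at 26.5 against 18.8 TPM. RB1, a tumor suppressor gene known to be altered in this line, was read at 16.3 against 12.7 TPM. Of 18 leukocyte and erythroid markers only CD14 and CD68 passed the filter, and the sum of the list was 150 to 155 TPM against 61.6 to 68.1 TPM, of which CD68, a lysosomal gene that tumor cells also express, made up 151 and 63.4 TPM on average. Their part in the results was not tested. Of 10 endothelial markers only ROBO4 passed (sums of 9.54 to 10.8 against 5.87 to 6.55 TPM). In genes of all 3 tables, libraries of the 2 control groups correlated at 0.955 to 0.957, and with MDA-MB-436 vehicle libraries at 0.764 to 0.770 (control for shPBRM1) and 0.805 to 0.815 (control for shIRF1). In that set 11.9% of genes differed by at least 2-fold between the control groups, against 43% and 40.3% between either of them and MDA-MB-436.

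The libraries themselves differed in composition. Short noncoding RNAs took 76.4% to 79.2% of deposited TPM in the control for shPBRM1 and 84.8% to 87.9% in the control for shIRF1, with RN7SL1 and RN7SL2, the RNA of the signal recognition particle, at 15.2% to 17.6% against 67.2% to 71.5%. RN7SK, a small nuclear RNA that restrains transcription elongation, went the other way, at 21.6% to 22.5% against 12.6% to 13.7%. TPM keeps no read depth. The authors' mean normalized counts sum to 27111321 over the genes of the shPBRM1 experiment and 63114292 over those of the shIRF1 experiment, so low genes rest on fewer reads in the former. Differences also moved with transcript length, when genes were cut into 5 classes of equal number: the median was -0.10 in the shortest class (longest transcript of 213 to 2066 bases) and 0.37 in the longest. By GC content it was 0.33 in the lowest class and -0.02 in the highest. The part of these features in the results was not tested, and list medians less those of genes of like length or GC content are given where they bear on a result.

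**Figure D1:**
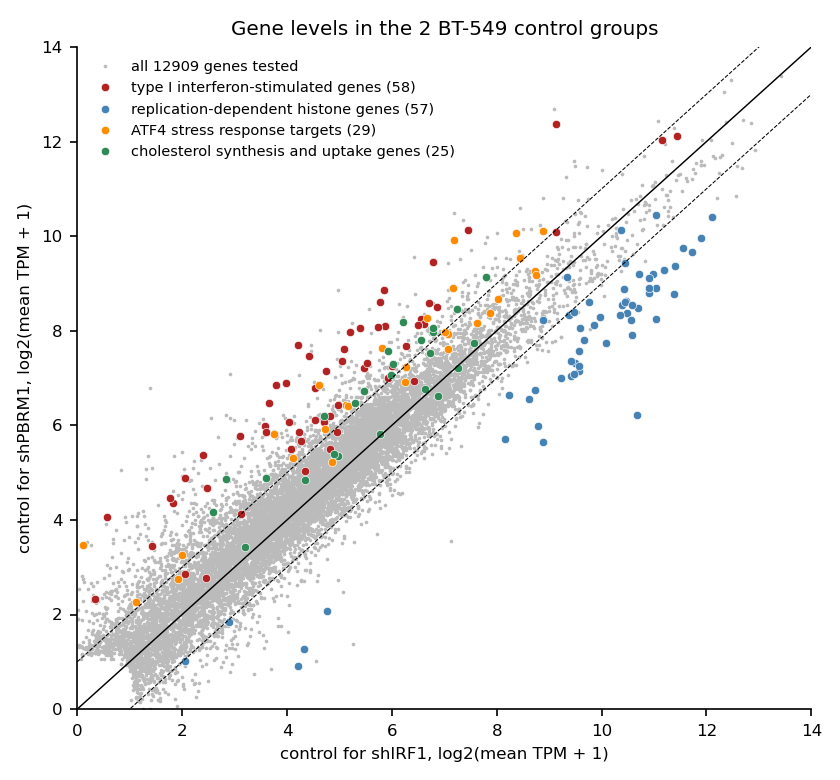
Each point is 1 of the 12909 genes tested, with log2(mean TPM + 1) in the control for shIRF1 on the x axis and in the control for shPBRM1 on the y axis (3 libraries each). The solid line marks equal levels and the dashed lines a log2 difference of 1. Type I IFN-stimulated genes (red) lie above the diagonal and replication-dependent histone genes (blue) below it, and most ATF4 targets (orange) and cholesterol genes (green) lie above it.

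The 9 genes followed by the study were first examined. PBRM1, a bromodomain subunit of the SWI/SNF complex PBAF (chr3:52545352-52685917, minus strand, GRCh38), was at 53.6, 51.7 and 53.9 TPM in libraries a, b and c of the control for shPBRM1 and at 52.5, 50.7 and 46.3 TPM in replicates 1, 2 and 3 of the control for shIRF1. Those ranges overlap, and the difference was 0.09 ± 0.06 (log2, SE). In shPBRM1 cells PBRM1 was at 13.4, 11.8 and 12.1 TPM, below every other BT-549 library. IRF1 (chr5:132481609-132490798, minus strand) was at 109, 109 and 109 TPM in the control for shPBRM1 and 34.3, 35.4 and 37.4 TPM in the control for shIRF1, 3.06-fold higher in the former. In shIRF1 cells it was at 8.94, 9.51 and 10.2 TPM, and in shPBRM1 cells at 33.6, 31.6 and 29 TPM. Unsilenced cells of the shIRF1 experiment thus held IRF1 near the level that shPBRM1 cells had after silencing.

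IDO1 (chr8:39902275-39928444, plus strand), which degrades tryptophan, was at 70.7, 68.4 and 66.3 TPM against 7.3, 7.62 and 10 TPM, a difference of 2.91 ± 0.13. WARS (chr14:100333788-100376805, minus strand), the tryptophanyl-tRNA synthetase, was at 833, 821 and 837 TPM against 179, 177 and 189 TPM. For these genes the groups were far apart compared with the spread within each. DDX58 (chr9:32455705-32526324, minus strand) encodes RIG-I, a sensor of viral RNA, and was at 245 ± 6.41 against 47.5 ± 3.44 TPM (mean ± SD, n = 3). IFIH1 (chr2:162267079-162318703, minus strand) encodes its relative MDA5 and was at 108 ± 3.97 against 24.9 ± 2.56 TPM. MUC1 (chr1:155185824-155192916, minus strand), a transmembrane mucin, was at 123 ± 7.98 against 52.3 ± 4.64 TPM. ISG15 (chr1:1001138-1014540, plus strand), a ubiquitin-like modifier, was at 1104, 1099 and 1060.2 TPM against 479.7, 533 and 668 TPM. Its groups did not overlap, but the difference of 0.97 ± 0.14 was just under the size required for a call, and its level varied more among the controls for shIRF1. In all 7 of 9 genes were called higher, 0 lower, with a list median of 2.08. The study chose these genes on cells of this series, so their shared direction is not independent evidence. In bulk RNA, fewer cells that express a gene and less of its RNA per cell cannot be told apart.

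**Figure D2:**
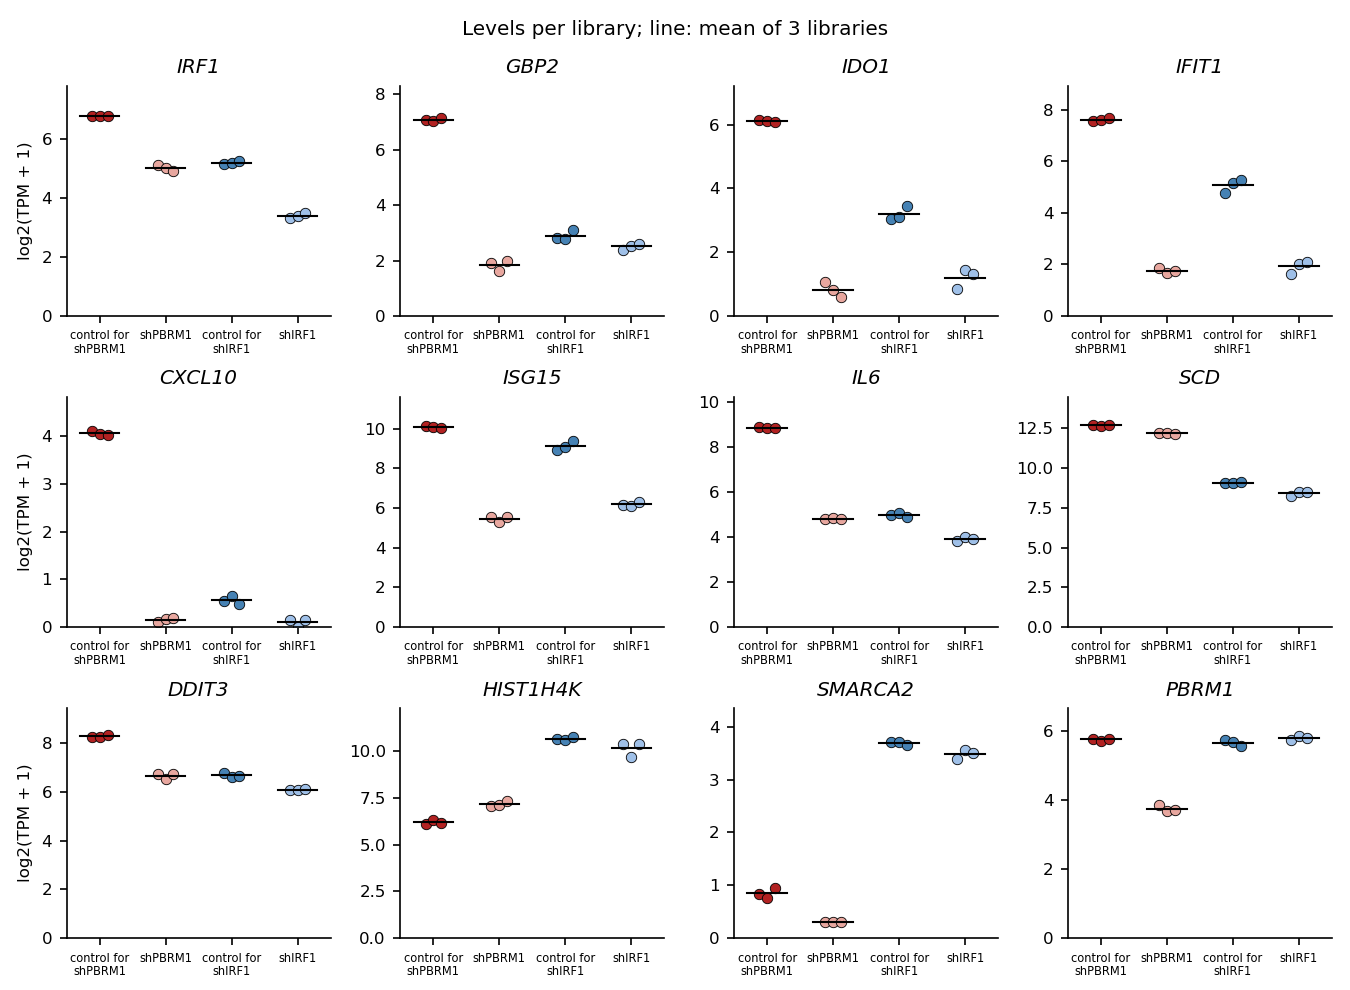
Each panel shows 1 gene, with log2(TPM + 1) on the y axis and the 4 BT-549 groups on the x axis; points are libraries and lines are means of 3. IRF1, GBP2, IDO1, IFIT1 and CXCL10 are highest in the control for shPBRM1, SCD separates the experiments rather than the silenced cells, and HIST1H4K and SMARCA2 are higher in the shIRF1 experiment.

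Of 61 type I IFN-stimulated genes 58 were tested, and 49 were called higher in the control for shPBRM1 and 0 lower. All 58 differences were positive, from 0.31 to 3.5, with a median of 2.01 (1.86 above that of all genes). Less the median of genes of like length the list median was 1.89, and of like GC content 1.85. The genes of the list together took 2.36% to 2.37% of rescaled TPM in the control for shPBRM1 and 0.745% to 0.911% in the control for shIRF1. CXCL10, a chemokine for T cells, showed the largest difference of the list, at 16.2, 15.6 and 15.4 TPM against 0.45, 0.573 and 0.40 TPM. CXCL10 reached the required 1 TPM in the control for shPBRM1 only, so it passed the filter only through the group in which it is high. IFI44L was at 214, 201 and 205 TPM against 14.7, 17.5 and 20.5 TPM. IFITM1, which restricts viral entry and has close paralogs that can share its reads, was at 5300.3, 5387 and 5255 TPM against 485, 522 and 666 TPM. RSAD2 (viperin), an enzyme that makes a chain-terminating nucleotide, was at 176 ± 7.87 against 20.4 ± 4.16 TPM. The control for shPBRM1 was uniform across its libraries, and replicate 1 of the control for shIRF1 was the lowest of its group for IFI44L, IFITM1 and RSAD2. In the 7-gene IFN-related DNA damage resistance signature 6 of 7 were called higher (median 2.35). Its members IFIT1 and IFIT3, which bind foreign RNA or partner in doing so, were at 194 ± 6.13 against 32.8 ± 5.7 TPM and 462 ± 14.6 against 56.7 ± 8.59 TPM. MX1, an antiviral GTPase, was at 1113 ± 6.6 against 175 ± 29.4 TPM.

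The promoters of these genes are shown because the ISRE is the site at which the factor with STAT2 and IRF9, and also IRF1, act. In RefSeq promoter windows (300 bases, GRCh38.p14) the core of the ISRE, 2 copies of GAAA with any 2 bases between them on either strand, was found in 32 of 47 type I genes with a window (68.1%) and in 3.65% of all 27305 windows. It was found in 0 of 24 windows of ATF4 targets. A match is a description and not evidence of binding. The 120 bases before the start are printed 5′ to 3′ in the direction of the gene, with each match in capitals, overlapping matches joined, for IFIH1 and 3 genes of the type I list. A match on the reverse strand, as in IFIT1, reads TTTC. They lie at chr10:89392503-89392622 for IFIT1, chr1:78620328-78620447 for IFI44L, chr1:1013377-1013496 for ISG15 (all plus strand) and chr2:162318685-162318804 for IFIH1 (minus strand).
IFIT1: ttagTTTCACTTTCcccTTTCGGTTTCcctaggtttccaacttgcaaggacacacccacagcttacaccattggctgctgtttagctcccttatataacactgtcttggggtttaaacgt
IFI44L: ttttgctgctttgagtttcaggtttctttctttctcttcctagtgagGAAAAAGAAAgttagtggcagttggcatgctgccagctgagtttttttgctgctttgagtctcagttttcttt
ISG15: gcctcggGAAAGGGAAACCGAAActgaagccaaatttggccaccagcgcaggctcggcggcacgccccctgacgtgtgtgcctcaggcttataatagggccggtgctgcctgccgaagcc
IFIH1: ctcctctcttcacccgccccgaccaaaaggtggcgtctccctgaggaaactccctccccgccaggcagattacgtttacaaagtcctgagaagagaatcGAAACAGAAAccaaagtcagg
IFIT1 and ISG15 carry 2 matches each in this window and IFI44L and IFIH1 carry 1. Among these 4 genes the difference between the control groups ran from 0.97 (ISG15) to 3.49 (IFI44L), with no order by the number of matches.

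Next, the upstream steps of the pathway were described. Of 9 IFN genes only IFNB1 and IFNE were tested. IFNB1, the type I IFN that fibroblast-like and epithelial cells make, was at 2.82, 4.51 and 4.26 TPM in the control for shPBRM1 and 0.508, 0.275 and 0.174 TPM in the control for shIRF1, called higher at a level near the limit of these data (mean normalized counts of 12.2 and 3.09 over the libraries of the shPBRM1 and shIRF1 experiments). IFNB1 passed the filter only through the group in which it is high. IFNE, which acts on the same receptor, was at 0.943 ± 0.0607 against 2.08 ± 0.348 TPM and was not called. Receptor chains and kinases had a lower median difference than the type I list. Of 13 receptor, JAK and SOCS genes 2 were called higher and 0 lower, with a median of 0.35. IFNGR1 was at 115 ± 2.14 against 46.3 ± 1.24 TPM and USP18, an ISG15 protease that also blocks IFNAR2 signaling, at 66.5 ± 1.76 against 15.4 ± 2.44 TPM. IFNAR1 (-0.15), IFNAR2 (0.42), IFNGR2 (0.23), JAK1 (0.35), JAK2 (0.96), TYK2 (-0.02) and SOCS1 (-0.43) were not called, the log2 difference being given for each. TYK2 was at 32.7 against 33.1 TPM, overlapping between the groups.

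Among the transcription factors 5 of 10 IRF and STAT genes were called higher and 0 lower (median 1.0). Those called included STAT2 (78.1 ± 2.77 against 28.3 ± 1.25 TPM), IRF7 (20.5 ± 0.277 against 8.2 ± 1.06 TPM) and IRF2 (61.8 ± 5.07 against 28.7 ± 0.894 TPM). IRF9 (0.92) and STAT3 (0.80) were not called, nor was IRF3, the factor that is present before any stimulus and turned on by phosphorylation (87.2 against 91.6 TPM). Of 16 cytosolic sensors and adaptors 10 were called higher and 0 lower (median 1.14). TLR3, the endosomal receptor for double-stranded RNA, was at 12.8 ± 0.332 against 2.16 ± 0.297 TPM, and DHX58 (LGP2), a regulator of RIG-I and MDA5, at 17 ± 0.675 against 4.24 ± 0.515 TPM. TMEM173, which encodes the adaptor STING, was at 39, 38.6 and 38.7 TPM against 7.04, 7.9 and 9.38 TPM. Its partner CGAS, the DNA sensor, was at 44.9, 49.7 and 48.5 TPM against 49.9, 47.5 and 45.8 TPM, and MAVS, the adaptor of the RNA sensors, at 31 against 40.3 TPM. STING and the RNA sensors therefore differed between the control groups where cGAS and MAVS did not reach a call. IRF2 held its call in 3 of the 6 other scalings of the data, and the call of STAT2, IRF7, TLR3, DHX58 and TMEM173 held in all 6.

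The IFN-gamma side of the program showed a difference of like size. Of 31 IFN-gamma response genes 23 were called higher and 0 lower, with a median of 2.04 (1.81 without the filter on low values). CXCL10, which is also in this list, passed the filter only through the group in which it is high. GBP2, a guanylate-binding protein that attacks the vacuoles of intracellular pathogens, was at 133, 129 and 139.6 TPM against 6.01, 5.86 and 7.59 TPM, 20.6-fold. GBP4 and GBP5 of the same family were at 70.7 ± 1.38 against 4.85 ± 0.807 TPM and 40.1 ± 2.54 against 2.57 ± 0.157 TPM. GBP genes lie in a cluster of close paralogs, so reads may be shared among them. Of 14 MHC class I and peptide loading genes 8 were called higher and 0 lower (median 1.20, all 14 positive). B2M, the light chain of MHC class I, was at 1792, 1692 and 1704 TPM against 746, 723 and 768 TPM. TAP1, which carries peptides into the endoplasmic reticulum, was at 25.9 ± 0.277 against 8.16 ± 0.50 TPM. ERAP1, which trims them there, was at 98 ± 2.6 against 29.1 ± 0.563 TPM, TAPBP (tapasin) at 143 ± 1.37 against 53.2 ± 1.32 TPM and HLA-E at 76.3 ± 0.866 against 28.6 ± 1.91 TPM. HLA-B and HLA-C, which are polymorphic and can share reads, differed by 0.85 and 0.92 and were not called (chosen for mention after their values were seen).

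Proteasome genes separated by type. Of 5 immunoproteasome genes 3 were called higher (median 1.10): PSME1, a subunit of the activator PA28 (535 ± 10.5 against 167 ± 2.94 TPM), PSMB9 (11.7 ± 0.302 against 4.55 ± 0.614 TPM) and PSMB8 (19.2 ± 0.514 against 8.42 ± 0.689 TPM). PSMB10 was at 63.4 ± 3.82 against 46.5 ± 3.34 TPM and not called. Of 15 constitutive core genes 0 were called in either direction, with a median of -0.47. PSMB5, PSMB6 and PSMB7, the catalytic subunits that the inducible ones replace, had differences of -0.28 ± 0.01, -0.91 ± 0.03 and -0.80 ± 0.01. The sign of the constitutive list turned to positive only in TPM as deposited (0.28), where the median of all genes was 0.72. The call of PSMB8 held in 3 and that of PSMB9 in 5 of the 6 other scalings.

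NF-kB targets, which encode cytokines and feedback regulators of inflammation, followed. Of 26 tested, 19 were called higher and 0 lower, with a median of 1.52. IL6, a cytokine that signals through STAT3, was at 466, 459 and 463 TPM in the control for shPBRM1 and 30.9, 32.2 and 28.5 TPM in the control for shIRF1, 15.2-fold. CXCL8, a neutrophil chemokine, was at 184, 194 and 193 TPM against 22.4, 21.5 and 18.9 TPM. SOD2, the mitochondrial superoxide dismutase, was at 1302 ± 20.2 against 163 ± 1.23 TPM. For IL6 and CXCL8 the groups were far apart compared with the spread within each. PTX3, a secreted pattern recognition protein, was at 4.95, 6.48 and 6.65 TPM against 0.0778, 0.0758 and 0.0449 TPM, and passed the filter only through the group in which it is high. Of the pathway's own parts, NFKBIA, the inhibitor of NF-kB (126 ± 3.18 against 46.6 ± 1.05 TPM), and RELB (59.5 ± 1.47 against 20.9 ± 0.688 TPM) were called higher and NFKB1 (46.4 against 25.7 TPM, 0.83) was not.

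Stress genes of the ATF4 arm were higher in the control for shPBRM1 as well. Of 29 ATF4 targets 16 were called higher and 0 lower, all 29 differences were positive, and the median was 1.13. Less the median of genes of like length it was 1.03, and of like GC content 1.0. ATF4 itself, which is regulated mainly at translation, was at 609.5, 626 and 604 TPM against 433, 412 and 419 TPM and was not called (0.54 ± 0.03). GDF15, a stress hormone, was at 980.5, 979 and 941 TPM against 144, 136 and 154 TPM. PCK2, the mitochondrial phosphoenolpyruvate carboxykinase, was at 114 ± 3.8 against 23.5 ± 0.364 TPM. SLC7A11, the cystine transporter, was at 55.4 ± 1.91 against 12.5 ± 0.917 TPM, and DDIT3 (CHOP), a factor of prolonged stress, at 309 ± 8.49 against 101 ± 5.95 TPM. FGF21, a hormone of amino acid shortage, was at 9.92, 9.74 and 10.6 TPM against 0.157, 0 and 0.0725 TPM, so it was present in one control group and at or near 0 in the other. It passed the filter only through the group in which it is high. FGF21 is shown as an example of the ATF4 element, with the letters TGATGNAA in capitals on the reverse strand, in the 120 bases before its start (chr19:48755404-48755523, plus strand, RefSeq, GRCh38.p14). These letters, on either strand, occurred in 6 of 24 ATF4 target windows (25.0%) and in 3.67% of all windows.
FGF21: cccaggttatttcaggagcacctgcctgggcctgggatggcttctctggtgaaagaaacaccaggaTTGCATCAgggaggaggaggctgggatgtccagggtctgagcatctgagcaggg

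Of 22 endoplasmic reticulum chaperone and unfolded protein response genes 12 were called higher and 0 lower (median 1.27). HSPA5 (BiP), the main chaperone of the compartment, was at 2821, 2851 and 2966 TPM against 726, 725 and 707 TPM. HSP90B1 was at 2833 ± 64.4 against 848 ± 33.9 TPM, HYOU1 at 582 ± 7.37 against 191 ± 2.02 TPM, and SEL1L, which helps to remove misfolded proteins, at 74.6 ± 2.1 against 23.9 ± 1.53 TPM. XBP1, a factor that drives these genes after splicing by IRE1, was at 392 ± 14.6 against 132 ± 2.97 TPM. In contrast, of 20 heat shock genes, which answer to misfolding in the cytosol, 1 was called higher and 1 lower, with a median of -0.47. The gene called higher, SERPINH1 (1786 ± 27.7 against 469 ± 15.7 TPM), encodes a collagen chaperone of the endoplasmic reticulum. The gene called lower was HSPH1 (152 ± 5.08 against 311 ± 25.4 TPM), a call that held in 4 of the 6 other scalings and was lost without replicate 1 of the control for shIRF1 (-0.97). The heat shock list turned positive only in TPM as deposited (0.27, with all genes at 0.72).

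Other stress programs were mixed. Of 27 immediate early genes 11 were called higher and 0 lower (median 0.84), led by EGR1, a growth factor response gene, at 176, 167 and 165 TPM against 30.4, 31.8 and 27.9 TPM. CYR61, PHLDA1 and CTGF were at 1064 ± 27.1 against 255 ± 20.7 TPM, 526 ± 6.76 against 164 ± 7.35 TPM and 368 ± 4.62 against 139 ± 10.8 TPM. Of the 11 calls 6 held under every scaling without short noncoding RNAs. Of 24 NRF2 targets 3 were called higher (median 0.49), a share of 12.5% beside the 9.87% of all genes: SLC7A11, which is also an ATF4 target, AKR1C1 (8.23 ± 1.28 against 1.68 ± 0.336 TPM), an aldo-keto reductase with close paralogs, and HMOX1 (252 ± 8.28 against 103 ± 5.0 TPM), which breaks down heme. Of 27 hypoxia and glycolysis genes 5 were called higher and 2 lower (median -0.24), of which 2 and 0 held under every scaling without short noncoding RNAs, with SLC2A3, a glucose transporter, at 16.1, 14.7 and 16.3 against 0.992, 0.65 and 1.0 TPM and LDHA, lactate dehydrogenase, at 611 ± 13.6 against 1323 ± 15.1 TPM, the latter called in 3 of the 6 other scalings. NDRG1 (42.3 ± 1.76 against 12.1 ± 0.79 TPM) and P4HA1 (341 ± 8.45 against 153 ± 5.02 TPM) were also called higher, and the list median was positive only in TPM as deposited (0.41).

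Metallothioneins are small proteins that bind zinc and copper. Of 5 metallothionein genes and the zinc exporter gene SLC30A1, 3 were called lower and 0 higher in the control for shPBRM1, with a median of -1.24 (-0.30 without the filter on low values). MT2A was at 1761, 1832 and 1802 TPM against 4501, 4660.4 and 5007 TPM, MT1E at 84.9, 72.2 and 67.4 TPM against 209.8, 212 and 218 TPM and MT1F at 1.51, 1.86 and 2.56 TPM against 11.5, 10.7 and 9.79 TPM. These genes are near-identical neighbors on chromosome 16, and reads may be shared among them. MT1F rests on a mean normalized count of 3.59 in the shPBRM1 experiment.

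Genes of sterol synthesis were higher as well. Of 25 cholesterol synthesis and uptake genes 15 were called higher and 0 lower, with a median of 1.18. INSIG1, a sterol sensor, was at 294, 287 and 286 TPM against 74.5, 71.8 and 74.6 TPM. TM7SF2 and MSMO1, enzymes of the pathway, were at 28 ± 1.03 against 6.11 ± 0.744 TPM and 189.8 ± 4.48 against 60.1 ± 5.4 TPM. The genes of the regulators SREBF2 (133 ± 3.82 against 61.9 ± 1.71 TPM) and SREBF1 (161 ± 2.88 against 62.1 ± 6.3 TPM) were called higher, SREBF2 in 3 of the 6 other scalings. SCD, the desaturase that makes monounsaturated fatty acids (chr10:100347124-100364834, plus strand), was at 6695, 6505 and 6674 TPM against 534, 531 and 559.5 TPM, 12.2-fold. FASN, fatty acid synthase, was at 248 ± 3.66 against 112 ± 6.45 TPM, with a call that held in 4.

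**Figure D3:**
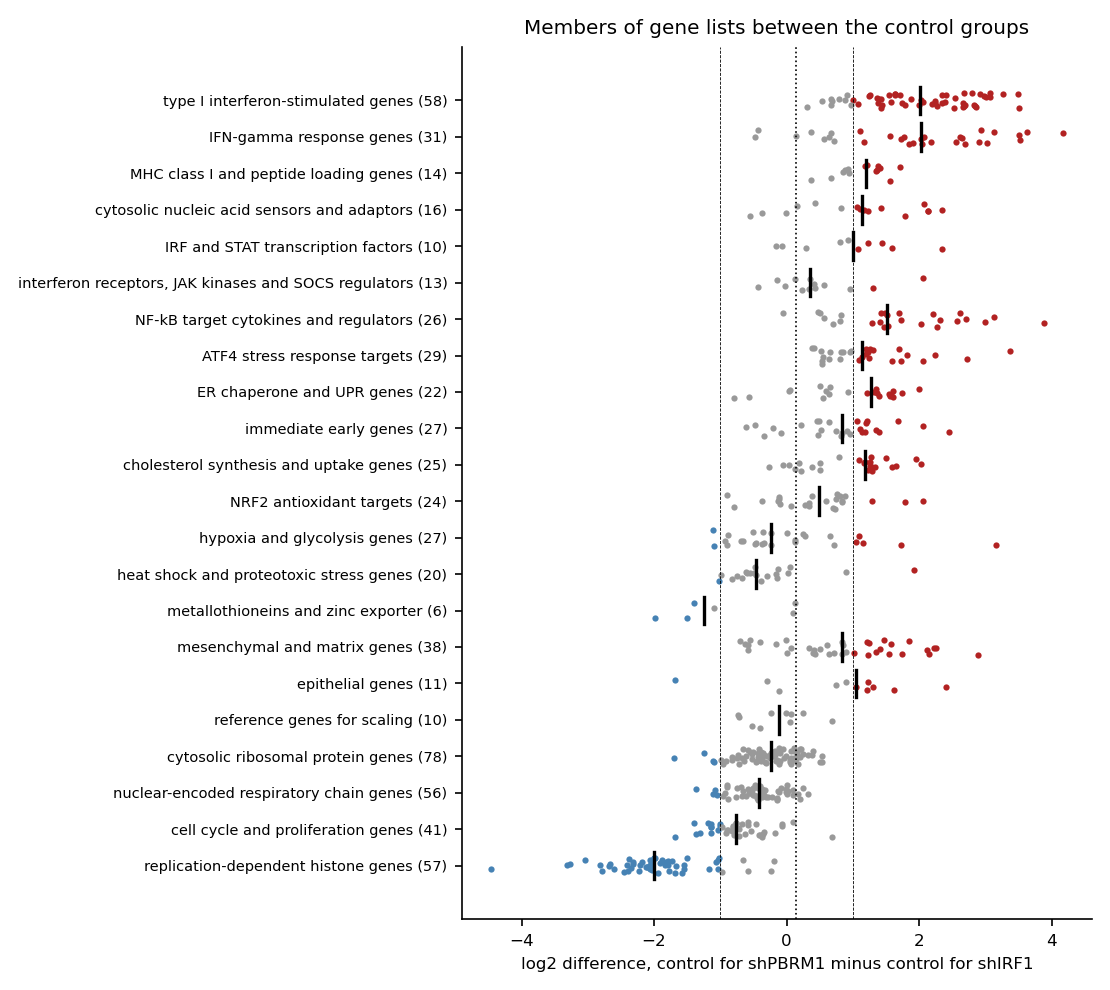
Log2 differences, control for shPBRM1 minus control for shIRF1 (x axis), of the genes of 22 lists (y axis; number tested in parentheses). Points are genes, red called higher, blue called lower and gray not called; thick bars are list medians, the dotted line is the median of all genes (0.15) and the dashed lines mark differences of 1 and -1. Type I, IFN-gamma, NF-kB, ATF4 and cholesterol lists lie mostly to the right, histone and cell cycle lists to the left.

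Among all lists, histone genes had the most negative median. Of 57 replication-dependent histone genes tested 52 were called lower in the control for shPBRM1 and 0 higher, and all 57 differences were negative (median -2.0, or -1.93 less that of genes of like length). They took 2.03% to 2.17% of rescaled TPM in the control for shPBRM1 and 7.08% to 7.59% in the control for shIRF1. HIST1H4K (chr6:27831216-27831527, minus strand) was at 68.8, 78.9 and 71.3 TPM against 1601, 1563 and 1740.4 TPM, 22.4-fold higher in the latter. HIST1H4J was at 49 ± 12.9 against 472 ± 16.5 TPM, HIST1H1A at 0.885 ± 0.38 against 17.6 ± 2.05 TPM and HIST1H4L at 1.42 ± 0.265 against 18.9 ± 2.38 TPM. Copies of one histone type are nearly the same in sequence, so the values of single copies are uncertain. Most of these mRNAs end in a stem loop without a poly(A) tail. Of other RNAs without such a tail, RN7SL took a larger and RN7SK a smaller share of deposited TPM in the control for shIRF1. In shPBRM1 libraries the histone share was 4.8% to 4.9% of rescaled TPM, above that of their controls, with RN7SL at 13.3% to 18.5% of deposited TPM. The part of these RNAs in the histone difference was not tested. SLBP, which binds the stem loop and has a polyadenylated mRNA, was at 77.9 against 97.7 TPM (-0.32 ± 0.03).

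Genes of the cell cycle differed in the same direction, by less. Of 41 tested 12 were called lower and 0 higher in the control for shPBRM1, with a median of -0.76. Of the 12 calls 5 held under every scaling that left short noncoding RNAs out. PLK1, a mitotic kinase, was at 60.8, 61.3 and 61.6 TPM against 195, 205 and 200.0 TPM. CDC20, which activates the anaphase-promoting complex, was at 190.3 ± 8.1 against 502 ± 5.62 TPM. RRM2, a subunit of ribonucleotide reductase, was at 101 ± 2.99 against 262 ± 15.1 TPM and MYBL2, a factor of late cell cycle genes, at 109 ± 1.38 against 273 ± 9.8 TPM. MKI67 and CCNA2 were not called (-0.59 ± 0.06 and -0.72 ± 0.05). Of 78 ribosomal protein genes 4 were called lower (5.13% of the list beside 3.13% of all genes): RPS28, RPL39, RPS21 and RPL35, with differences of -1.70, -1.24, -1.11 and -1.10. The call of RPS21 held in 4 and that of RPL35 in 3 of the 6 other scalings. Of 56 respiratory chain genes 4 were called lower, NDUFB2 (-1.36), NDUFS7 (-1.11), NDUFB7 (-1.08) and NDUFA12 (-1.05), the last 3 in 4 of the 6 other scalings. The median of ribosomal protein genes was -0.24 and that of respiratory chain genes -0.42. Both turned positive only in TPM as deposited (0.51 and 0.32). The longest transcripts of these genes had medians of 1842 and 1329 bases, within the shortest of the 5 length classes, and less the median of genes of like length the list medians were -0.28 and -0.38.

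Genes of cell identity were then compared. Of 38 mesenchymal and matrix genes 16 were called higher in the control for shPBRM1 and 0 lower (median 0.84). COL3A1, a fibrillar collagen, was at 349, 349 and 354 TPM against 43.9, 45.2 and 49.9 TPM, COL5A2 at 732 ± 11.2 against 156 ± 3.92 TPM, COL6A3 at 14.5 ± 0.443 against 2.24 ± 0.108 TPM and ACTA2, smooth muscle actin, at 30.8 ± 1.85 against 6.17 ± 0.674 TPM. ZEB1, a repressor of epithelial genes, was at 67.1 ± 2.12 against 21.8 ± 1.27 TPM. FN1 was at 165 against 165 TPM, with overlapping groups. Of 11 epithelial genes tested 6 were called higher and 1 lower, with CDH1 at 3.07 ± 0.283 against 0.326 ± 0.048 TPM, ELF3 at 5.31 ± 0.13 against 0.196 ± 0.0402 TPM, OCLN at 19.4 ± 0.197 against 7.23 ± 0.295 TPM and KRT17 at 0.454 ± 0.125 against 3.66 ± 0.344 TPM. EPCAM was near 0 (0.283, 0 and 0 against 0.0898, 0.153 and 0.0346 TPM). The 11 are part of a list of 22. CDH1 and ELF3 reached the required 1 TPM in the control for shPBRM1 only, and KRT17 in the control for shIRF1 only. With no filter the list median fell from 1.05 to 0.04, so neither the count nor the median speaks for the list. Of 17 YAP and TEAD targets 4 were called higher (median 0.50): CYR61, CTGF, DLC1 (19.5 ± 0.683 against 4.57 ± 0.478 TPM) and TGFB2 (17.3 ± 0.513 against 6.54 ± 0.343 TPM). Of 12 matrix protease and secreted factor genes 4 were called higher, among them MMP1 (66.9 ± 1.2 against 19.6 ± 1.84 TPM), TIMP2 (293 ± 1.07 against 116 ± 2.16 TPM) and IGFBP3 (341 ± 12.1 against 169 ± 6.2 TPM), the last holding its call in 2 of the 6 other scalings and losing it without library a of the control for shPBRM1 or replicate 2 of the control for shIRF1 (0.98 each). EGFR, a growth factor receptor, was at 149 ± 5.43 against 61.6 ± 1.71 TPM. Of 5 long noncoding RNAs tested (median 0.13) GAS5, a host transcript of small nucleolar RNAs, was called higher (742 ± 27.8 against 289 ± 10.9 TPM), and MALAT1 (0.91) and NEAT1 (-0.89), which stay in the nucleus, were not called and differed in opposite directions.

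Of 4 SWI/SNF genes read here beside PBRM1, only SMARCA2 was called, lower in the control for shPBRM1. SMARCA2 was picked for its large difference, and the other subunits of the complexes were not examined. SMARCA2 (chr9:1980290-2193624, plus strand), the BRM ATPase, was at 0.773, 0.70 and 0.936 TPM in the control for shPBRM1 and 12.1, 12.2 and 11.7 TPM in the control for shIRF1, 14.9-fold higher in the latter. It kept that separation in the silenced cells, at 0.239, 0.229 and 0.227 TPM with shPBRM1 and 9.55, 10.8 and 10.4 TPM with shIRF1. Its paralog SMARCA4 (BRG1) was at 91.2 against 91.2 TPM, and the PBAF subunits ARID2 and BRD7 at 21.4 against 20.4 TPM and 71.3 against 61.6 TPM, with differences of 0.00 ± 0.02, 0.07 ± 0.06 and 0.21 ± 0.04. SMARCA2 passed the filter only through the group in which it is high. How many of all genes keep such a gap in the silenced cells of both experiments was not computed for libraries taken 1 by 1.

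Over all genes with a mean of at least 5 TPM in the higher group, the 12 with the largest positive difference were KLHDC7B, INHBE, GBP2, RSPO3, IL6, TDO2, FGF19, GBP4, SCD, HEY1, GBP5 and CXCL10. KLHDC7B (chr22:50545891-50551023, plus strand) was at 111, 111 and 105 TPM against 1.54, 1.51 and 1.82 TPM. INHBE, an activin subunit, was at 32.5 ± 2.23 against 0.789 ± 0.0599 TPM, and RSPO3, an enhancer of Wnt signaling, at 39.9 ± 0.468 against 1.56 ± 0.136 TPM. TDO2, the other enzyme that opens the tryptophan ring beside IDO1, was at 32.7 ± 1.0 against 1.49 ± 0.199 TPM. FGF19, a growth factor, was at 33.4 ± 0.118 against 1.68 ± 0.238 TPM and HEY1, a Notch target, at 28 ± 1.73 against 1.48 ± 0.373 TPM. Of these 12, GBP2, GBP4, GBP5 and CXCL10 stand in the IFN-gamma list and IL6 in the NF-kB list. The 12 with the largest negative difference were HIST1H4K, LOC105376271, H2BFS, HIST1H1A, HIST1H4J, HIST1H4L, SMARCA2, HIST1H3A, HIST1H3C, HIST1H2BE, HIST1H3H and POTEE, 8 of them HIST1 histone genes. LOC105376271 was at 10.8 ± 3.73 against 139 ± 21.2 TPM but rests on mean normalized counts of 7.07 and 11, and POTEE (0.662 ± 0.0538 against 9.35 ± 0.127 TPM) belongs to a family of near-identical copies. CXCL10, INHBE, SMARCA2 and POTEE passed the filter only through the group in which they are high.

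Finally, the silenced libraries were set beside the controls to show which differences were also present after silencing. Between shPBRM1 and shIRF1 libraries, 12689 genes were tested, of which 824 (6.49%) were called higher and 882 (6.95%) lower with shPBRM1. Of the 1274 genes called higher between the controls, 412 (32.3%) were also called higher between the silenced groups and 25 were called lower. Of those 1274 genes 1145 were tested between silenced groups, and 412 is 36% of them. Of the 404 called lower, 189 (46.8%, or 49.1% of the 385 tested) were also called lower and 1 was called higher. These comparisons share no library, but they share tables and hence whatever sets the tables apart.

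The lists behaved differently in this respect. For type I IFN-stimulated genes the median went from 2.01 between controls to -0.11 between silenced groups over the same 58 genes. Of these 45 were tested between silenced groups, and 6 were called higher and 6 lower, beside 6.49% and 6.95% of all genes. Of the 49 genes called between controls 37 were tested and 5 called higher again. The list took 0.268% to 0.286% of rescaled TPM with shPBRM1 and 0.216% to 0.245% with shIRF1. All 58 genes had a lower mean in the control for shIRF1 than in the control for shPBRM1, and 57 of them were lower still in shPBRM1 cells. The share over all genes was not computed. MX1, for instance, was at 1113 TPM in the control for shPBRM1, 175 TPM in the control for shIRF1, 1.33 TPM with shPBRM1 and 4.69 TPM with shIRF1. The silenced cells of both experiments were thus at low levels, and their controls were not alike. For cholesterol genes the median was 1.18 between controls and 1.30 between silenced groups, and 14 of the 15 genes were called higher again. SCD was at 4675 TPM with shPBRM1 and 341 TPM with shIRF1, and INSIG1 at 270.3 and 63.3 TPM. ATF4 targets kept a median of 0.81 (9 of 16 called again) and NF-kB targets 0.80 (9 of 19, 18 of them tested), with CXCL8 at 119.7 against 15.9 TPM but IL6 at 27 against 13.9 TPM. Unfolded protein response genes had a median of 0.30 (1 of 12), histone genes -0.36 (7 of 52 called lower again), and metallothioneins -2.09 (3 of 3). The sterol median was thus no smaller between silenced groups. The ATF4, NF-kB and unfolded protein response medians were smaller there but above 0. The same holds for the MHC class I, immunoproteasome and IFN-gamma lists. The metallothionein gap was wider there, and all 6 genes were called lower. Against their own controls the metallothionein medians were -0.93 (shPBRM1) and 0.58 (shIRF1). The type I median was well above 0 between the control groups only. Between silenced groups it was 0.24 in TPM as deposited and 0.072 with quantile scaling. For MHC class I genes the median between silenced groups was 0.73 (4 of 8 called higher again, 2 of the list lower). It was 1.09 for immunoproteasome genes (2 of 3) and 0.19 for IFN-gamma genes (7 of 23, 16 of them tested). The difference of these differences was not tested.

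**Figure D4:**
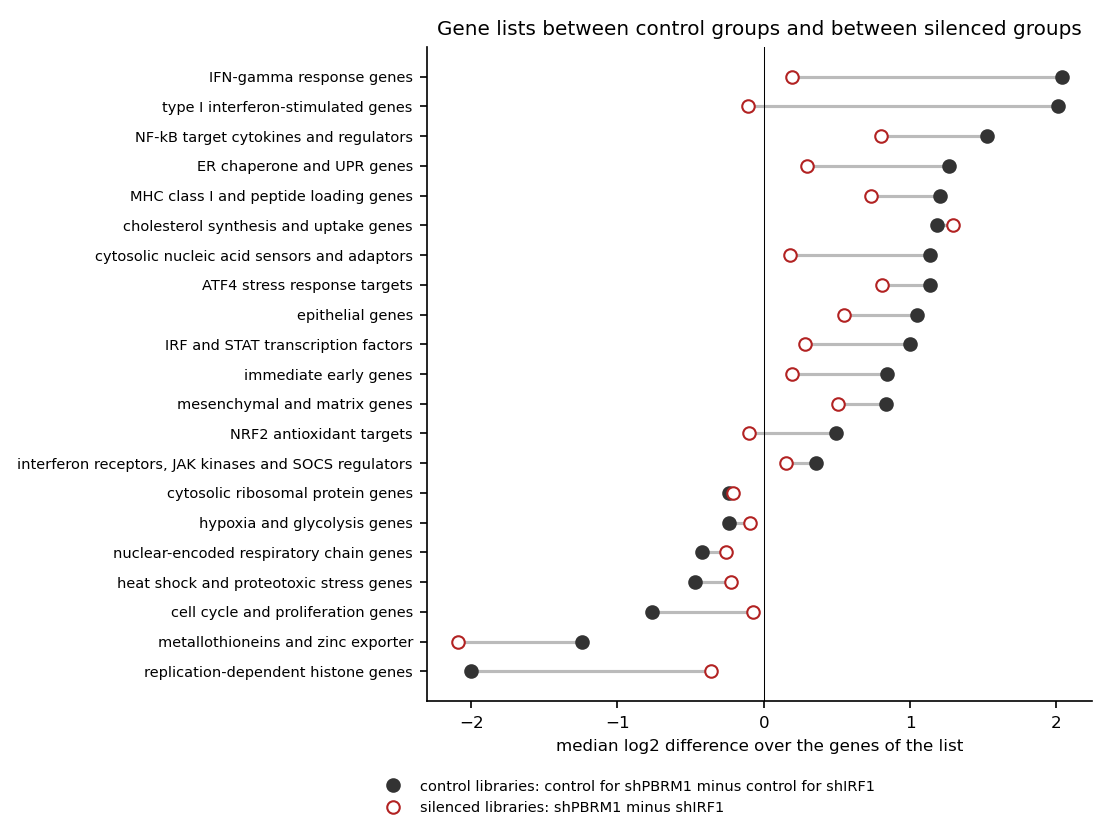
Median log2 difference of each of 21 gene lists (x axis) between the control groups (filled, control for shPBRM1 minus control for shIRF1) and between the silenced groups (open, shPBRM1 minus shIRF1), each from 3 and 3 libraries. The filled and open points of the type I list lie at 2.01 and -0.11, those of the cholesterol list at 1.18 and 1.30.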

How the data were processed

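RNA was measured by stranded mRNA sequencing (TruSeq Stranded mRNA) in triplicate cultures. The authors deposited TPM (transcripts per 1000000) for each gene and library, in 1 table per experiment, with short noncoding RNAs included. The submitters' processing notes name STAR, DESeq2 and the GRCh38 build, without versions, and for the annotation, the counter and the program behind the TPM the sources used here name none. The authors also deposited, for each experiment, mean normalized counts over its libraries (a signal that serves here only as a measure of depth), beside columns of their own fold changes and p-values, which were not used. Depth per library is unknown, and counts could not be tested.

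Symbols listed in both BT-549 tables were joined (25539 genes, 47 of them after repair of the symbol), 149 short noncoding RNAs were left out, and each library was rescaled to 1000000. Genes with at least 1 TPM in at least 3 of the 6 control libraries were kept (12909). Levels are log2(TPM + 1). No p-value was computed, since the tables were made separately and experiment and group cannot be told apart. A call needs a difference of at least 1 and no overlap of the 3 and 3 libraries. The 3 control columns of the shPBRM1 table could be tied to their group but not to single samples, and are named a, b and c. Scripts were run with Python 3.11.15, pandas 2.3.3 and numpy 2.4.6 and tested on simulated data. Gene coordinates are from GENCODE release 29 (GRCh38), promoter windows (250 bases before to 50 after the start) from RefSeq (GRCh38.p14).

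Named genes are those followed by the study, the up to 4 called members of each list with the largest difference (or 2 tested members where fewer are called), the 12 largest positive and 12 largest negative differences over all genes with at least 5 TPM in the higher group, and regulators needed to describe a list. The comparison, the 37 gene lists and the rules were chosen with earlier results of these data known. Alternatives covered 6 other scalings, a pseudocount of 0.1, a mean of at least 5 TPM or no filter, and leaving out each library. Several genes and lists are not reported here.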

Additional observations from a re-analysis of the deposited data

Results flagged for a closer look

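For 4 gene lists the silenced libraries of the 2 experiments lay on opposite sides of their own controls, in every library, by the median log2 difference over the genes of the list. The difference between the experiments was not tested, and control and silenced libraries of one experiment share a table. Endoplasmic reticulum chaperone and unfolded protein response genes had a median of -0.13 for shPBRM1 minus its control and 0.305 for shIRF1 minus its control, and the median difference was 1.27 between the control groups and 0.30 between the silenced groups. Metallothioneins had medians of -0.93 and 0.58, and their median difference was -1.24 between controls and -2.09 between silenced groups. Replication-dependent histone genes had medians of 1.18 and -0.38, and their gap went from -2.0 between controls to -0.36. Cell cycle genes had medians of 0.42 and -0.18, and their gap went from -0.76 to -0.07.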

How the results depend on the processing

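The comparison rests on 3 and 3 libraries from tables made separately, and depth per library is unknown. No paired analysis was possible because the result comes from no test and the control columns of one table carry no sample number. The numbers of genes called lower moved most. In TPM as deposited 2905 genes were called higher and 47 lower, and the medians were 2.32 for type I IFN-stimulated genes, 1.65 for ATF4 targets and 0.24 for the type I list between silenced groups. With trimmed-mean scaling 635 genes were called lower, with medians of 1.89 and 1.02 (type I, ATF4). Median-ratio scaling gave 627, 1.90 and 1.02. Quantile scaling gave 678, 1.85 and 0.998, and 0.072 between silenced groups. Scaling to reference genes gave 264, 2.11 and 1.25. A pseudocount of 0.1 gave 613, 2.19 and 1.23. Without the filter the type I median was 1.94. Less the median of genes of like length the medians were 1.89 and 1.03, and of like GC content 1.85 and 0.999, alternatives chosen after seeing the data. Leaving out 1 library in turn gave 1096 to 1314 genes called higher, 357 to 418 lower, a type I median of 1.94 to 2.06, an ATF4 median of 1.10 to 1.18 and a silenced type I median of -0.13 to -0.05 (this last also chosen after seeing the data). The cause of these moves was not tested. No named gene with a call changed sign under these alternatives, and other called genes were not checked for this. Genes that reached 1 TPM in 1 group only, such as IFNB1, FGF21, CXCL10 and SMARCA2, fell under the filter when a library of that group was left out, and then gave no value.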
